A study of Mus musculus with 335 samples.

Results

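Il1b and Tnf encode a pair of inflammatory cytokines, interleukin-1 beta and tumour necrosis factor, and their RNA was followed through 4 groups of sorted single cells and cell by cell, beside C1qb and Csf1r. The 2 genes were taken by symbol from a table of estimated counts with 13448 genes that carry a symbol, and both were found there. The cells came from the aorta-gonad-mesonephros (AGM) region, where haematopoietic stem cells first arise, of wild-type mouse embryos at E11.5. They comprised 65 EPCR+CD45+ cells, a sort that holds the stem cells together with progenitors (HSC), and 2 sets of sympathoadrenal cells sorted as Ngfr+Pdgfrb-, 93 taken dorsally (Dorsal) and 89 ventrally (Ventral). The last 88 cells were sorted as Pdgfrb+Ngfr- on the ventral side and are labelled subaortic mesenchymal cells (Mesenchymal). All 4 groups were untreated, came from collagenase-treated tissue and were prepared by the full-length SmartSeq2 method. Each group was sequenced as 1 pool, and the labels name no embryo or litter. A group is therefore 1 sample: no test, p-value or standard error is given, and the limits printed are exact 95% limits that cover counting error only. Group and pool cannot be told apart.

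Interleukin-1 beta is made as an inactive precursor, which caspase-1 cleaves after inflammasome assembly, and it acts through the receptor Il1r1 and its partner Il1rap. Tumour necrosis factor is made as a membrane protein that Adam17 sheds, and it acts through the receptors Tnfrsf1a and Tnfrsf1b. Both receptor systems activate NF-kB, which in turn induces both cytokine genes, and macrophages are a major source of both proteins. C1qb, a chain of complement component C1q, and Csf1r, the receptor for macrophage colony-stimulating factor, mark tissue macrophages.

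Il1b lies on the minus strand at chr2:129364570-129371139 and Tnf on the minus strand at chr17:35199381-35202007 (GRCm38, GENCODE M21). The protein-coding transcript used for length has 7 exons and 1356 bases for Il1b, and 4 exons and 1639 bases for Tnf. The 250 bases before each start are printed because the 3 Ventral cells with the most Tnf were also high in Il1b. They come from RefSeq (GRCm38.p6), 5′ to 3′ on the gene's strand, from chr2:129371140-129371389 and chr17:35202008-35202257, with matches to the motifs searched in capitals.
Il1b: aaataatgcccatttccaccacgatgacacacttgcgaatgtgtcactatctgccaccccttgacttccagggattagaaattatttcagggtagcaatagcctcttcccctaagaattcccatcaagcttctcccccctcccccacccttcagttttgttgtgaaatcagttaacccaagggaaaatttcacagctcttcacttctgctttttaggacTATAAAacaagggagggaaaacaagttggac
Tnf: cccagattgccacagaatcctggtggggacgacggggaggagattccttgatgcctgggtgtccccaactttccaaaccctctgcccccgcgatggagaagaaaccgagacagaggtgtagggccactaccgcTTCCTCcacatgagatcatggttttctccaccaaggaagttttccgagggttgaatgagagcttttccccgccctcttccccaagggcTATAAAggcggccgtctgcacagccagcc
The motifs were TATAAA (the TATA box), TGANTCA (AP-1), GAGGAA (the core bound by PU.1, the product of Spi1) and GGGNNTTTC (the core bound by NF-kB), each read on both strands, and no 2 of them overlapped in these windows. TATAAA stood 31 to 26 bases before the start of Il1b and 29 to 24 bases before that of Tnf. Tnf also held TTCCTC, the PU.1 core on the opposite strand, 117 to 112 bases before its start. Neither window held the AP-1 or the NF-kB letters, which says nothing of sites farther out or with other letters. Over 32851 promoter windows of the same length, TATAAA was found in 12.4%, the PU.1 core in 23.3%, the AP-1 letters in 6.75% and the NF-kB letters in 3.72%.

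Depth and purity bear on every value. The estimated counts summed to 82516453 for the HSC pool, 108409099 for Dorsal, 110598792 for Ventral and 68560755 for Mesenchymal, with median totals per cell of 943772, 1033890, 574689 and 505916 in that order. Ventral 41 alone held 18.5% of the Ventral total (cells are named by their group and their number in the order of deposit). Ngfr, the gene of the sort, had a median of 252 CPM (counts per 1000000 counts of genes with a symbol) over Dorsal cells and 17.2 CPM over Ventral cells. The cells highest in C1qb went against that sort at the RNA level. In the 7 Dorsal and 10 Ventral cells with at least 50 counts of C1qb and of Csf1r, Ngfr lay between 1.03 and 4.43 CPM in Dorsal and between 0 and 4.30 CPM in Ventral, and Ptprc, which encodes CD45, lay between 179 and 691 CPM in Dorsal and between 290 and 1222 CPM in Ventral.

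Il1b RNA was highest in the Ventral pool and was carried there by a few cells. Its level was 3.28 CPM in HSC (95% limits 2.90 to 3.70), 1.52 CPM in Dorsal (1.30 to 1.77), 52.7 CPM in Ventral (51.4 to 54.1) and 0 counts in Mesenchymal, where the upper limit was 0.0538 CPM. The order from high to low was Ventral, HSC, Dorsal, Mesenchymal, with no overlap of these counting limits between neighbours. Most cells had none: 2 of 65 HSC cells, 2 of 93 Dorsal cells, 23 of 89 Ventral cells and 0 of 88 Mesenchymal cells had any Il1b count, and the median cell was at 0 in each group.

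Single cells made these group values. Ventral 21 held 4966 of the 5830 Ventral counts, or 85.2%, and Ventral 21 and Ventral 4 together held 98.3%. The next were Ventral 37 with 31.3 counts and Ventral 34 with 23.2, and no other Ventral cell had more than 5.22. HSC 48 held 213 of 271 counts in HSC and HSC 18 the other 58.1, and Dorsal 71 held 139 of 165 counts in Dorsal and Dorsal 33 the other 25.8. Without the highest cell of each group Il1b stood at 0.719 CPM in HSC, 0.241 CPM in Dorsal and 8.10 CPM in Ventral, and the order of the groups was the same. On the scale of the single cell, Il1b was 1262 CPM in Ventral 21 and 1001 CPM in Ventral 4, against 118 CPM in HSC 48 and 111 CPM in Dorsal 71.

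Tnf RNA was also highest in the Ventral pool. It stood at 1.34 CPM in HSC (1.10 to 1.61), 0.708 CPM in Dorsal (0.559 to 0.886), 2.69 CPM in Ventral (2.39 to 3.01) and 0 counts in Mesenchymal (upper limit 0.0538 CPM). Ventral was again highest and Mesenchymal lowest, and the counting limits of neighbours did not overlap. Without the highest cell of each group Tnf stood at 0.313 CPM in HSC, 0.348 CPM in Dorsal and 1.07 CPM in Ventral, and HSC no longer stood above Dorsal (log2 fold -0.039).

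The Ventral Tnf counts came from 4 cells and traces elsewhere: 184 in Ventral 21, 49.2 in Ventral 4, 41.2 in Ventral 37 and 20.4 in Ventral 55. In HSC the counts were 84.9 in HSC 9 and 24.5 in HSC 48, and in Dorsal 39.3 in Dorsal 90 and 36.5 in Dorsal 1. At most 1.02 counts were found in any other cell. Per kilobase of transcript, Il1b exceeded Tnf in each of the 3 groups that had both, by 2.96 times in HSC (2.42 and 0.816 CPM per kb), 2.60 times in Dorsal (1.12 and 0.432) and 23.7 times in Ventral (38.9 and 1.64). Single cells carry these ratios: without the highest cell of each gene the ratio was 2.78 in HSC and 9.19 in Ventral, and in Dorsal the order turned, with 0.177 CPM per kb of Il1b and 0.213 of Tnf.

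**Figure D1:**
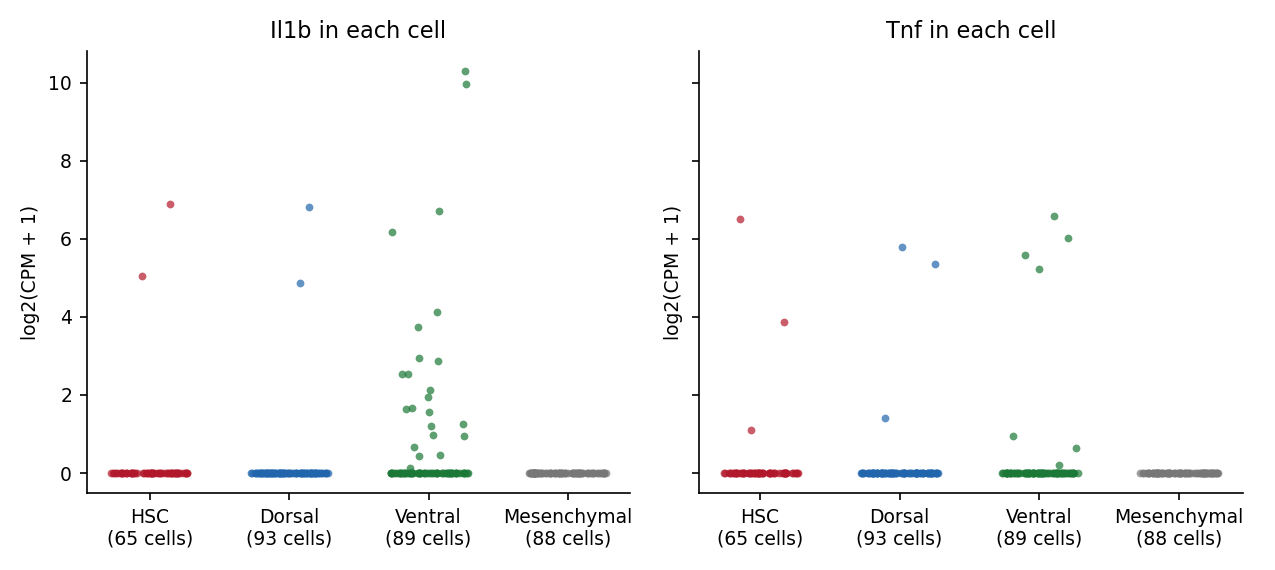
Il1b (left) and Tnf (right) in each cell as log2(CPM + 1), by group; each point is 1 cell, spread sideways at random. Nearly all cells lie at 0, the 2 highest Il1b points are Ventral 21 and Ventral 4, and no Mesenchymal cell lies above 0.

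Between groups, folds are log2 ratios of (CPM + 1). Il1b was 3.65 lower on the log2 scale in HSC than in Ventral (log2 fold -3.65, limits -3.82 to -3.48) and lower still in Dorsal than in Ventral (-4.41, limits -4.58 to -4.24). It differed less than 2-fold between HSC and Dorsal (0.76, limits 0.49 to 1.03). Against the Mesenchymal group, set at a floor of 3 counts over the group, it was at least 74.97-fold higher in HSC and at least 1205-fold higher in Ventral, bounds that were 16.4 and 185 without the highest cell of each group. Tnf was more than 2-fold lower in Dorsal than in Ventral (-1.11, limits -1.36 to -0.85), within 2-fold between HSC and Ventral (-0.66) and between HSC and Dorsal (0.45), and at least 30.6-fold and 61.5-fold higher in HSC and in Ventral than in Mesenchymal. Without the highest cell of each group the Tnf fold of Dorsal over Ventral was -0.62 and no longer 2-fold, and on the authors' size-factor scale it was -0.84; the bounds against Mesenchymal were 7.14 in HSC and 24.4 in Ventral.

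These folds stand among many. Among genes that reached 100 counts in a comparison, 14.1% were higher by 2-fold or more in HSC than in Ventral and 24.5% were lower. The shares were 11.3% higher and 25.3% lower for HSC over Dorsal, and 16.6% and 22.6% for HSC over Mesenchymal. They were 10.1% and 8.3% for Dorsal over Ventral, and 17.1% and 12.9% for Ventral over Mesenchymal.

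The relation to C1qb and Csf1r was read cell by cell. A cell was called positive for a gene with at least 5 counts after every cell was thinned at random to 310000 counts, which 305 cells reached. C1qb and Csf1r were both positive in 0 of 64 HSC cells (a count of 0 allows up to 4.69%), 10 of 92 Dorsal cells, 8 of 80 Ventral cells and 0 of 69 Mesenchymal cells (up to 4.35%). The marker genes lie at chr4:136880129-136886187 on the minus strand (C1qb) and chr18:61100598-61132149 on the plus strand (Csf1r). C1qb split the Dorsal and Ventral cells in 2: in the deposited counts no Dorsal cell lay between 22.3 and 1341, and no Ventral cell between 6.36 and 214. The 10 Dorsal double-positive cells include 3 just past the threshold, which are not among the 7 cells with at least 50 counts of each marker.

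The 8 Ventral and 7 of the 10 Dorsal double-positive cells carried the other macrophage markers too: C1qa, Adgre1, Mrc1, Tyrobp, Cx3cr1 and Spi1 were each positive in 7 of the 10. Over the 17 macrophage markers in the table, the summed level per cell had a median of 14996 CPM in the 10 Dorsal double-positive cells (105 to 25230), against 36.3 CPM in the 82 other Dorsal cells (1.03 to 314), so the lowest double-positive cells lay inside the range of the others. In the 7 Dorsal cells with at least 50 counts of each marker it was 11929 to 25230 CPM. In Ventral the medians were 17507 CPM in the 8 double-positive cells (12565 to 19784) and 36.6 CPM in the 72 others (0.470 to 311). Among the 17 cells with at least 50 counts of each marker, C1qa ran from 366 to 1970 CPM in Dorsal and from 118 to 1461 CPM in Ventral, and Mrc1, a mannose receptor of tissue macrophages, from 595 to 3012 and from 381 to 3693 CPM. The neural crest and sympathoadrenal markers, which belong to the sorted type, summed to a median of 16.3 CPM in the Ventral double-positive cells, against 1183 CPM in the other Ventral cells. In Dorsal double-positive cells they ran from 13.8 to 7066 CPM with a median of 29.3 CPM, against a median of 1407 CPM in the others, and Sox10 and Dbh, genes of crest and of noradrenergic cells, were each positive in 4 of the 10. In the 7 Dorsal cells with at least 50 counts of each marker the sum was at most 60.9 CPM.

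After thinning, every Dorsal or Ventral cell that was positive for Il1b or Tnf lay among these double-positive cells. Il1b was positive in 2 of 10 Dorsal (20%, limits 2.52 to 55.6%) and 3 of 8 Ventral double-positive cells (37.5%, 8.52 to 75.5%). In the other cells it was positive in 0 of 82 and 0 of 72, with upper limits of 4.40% and 4.99%. Tnf was positive in 2 of 10 (20%, 2.52 to 55.6%) and 4 of 8 (50%, 15.7 to 84.3%), again against 0 of 82 and 0 of 72. Over both groups, 8 of 18 double-positive cells had Il1b or Tnf (44.4%, 21.5 to 69.2%) and 10 had neither at this depth. Without thinning the picture for Il1b in Ventral was different: of 8 Ventral cells with at least 5 deposited counts of Il1b, 3 had at least 50 counts of each marker (37.5%, 8.52 to 75.5%) and 5 did not, 1 of them Ventral 34 at 104 CPM and the other 4 at 5.22 counts or fewer.

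Il1b and Tnf met in the same cell in Ventral but not in Dorsal. Ventral 21, Ventral 4 and Ventral 37 were positive for both and Ventral 55 for Tnf alone. Dorsal 71 and Dorsal 33 had Il1b and 0 counts of Tnf, while Dorsal 90 and Dorsal 1 had Tnf and 0 counts of Il1b. With so few cells the limits on the share of Tnf-positive cells that were Il1b-positive were wide, 0 to 84.2% in Dorsal and 19.4 to 99.4% in Ventral.

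Summed over the classes, Il1b reached 15.5 CPM in Dorsal double-positive cells (13.2 to 18.1) and 0 counts in the others, at least 503.6-fold higher. Without Dorsal 71, which held 84.4% of these counts, it was 2.74 CPM and at least 89.2-fold higher. Both bounds are ratios of CPM to the floor of 3 counts, without the added 1. As a log2 fold of (CPM + 1), Il1b stood at 4.04 in Dorsal with Dorsal 71 kept. In Ventral it reached 762 CPM in double-positive cells (743 to 782), against 0.355 CPM in the others (0.248 to 0.492). The log2 fold of (CPM + 1) was 9.14 there. Tnf stood at 7.12 CPM in Dorsal double-positive cells (5.61 to 8.92), against 0.984 counts, or 0.0101 CPM (0.000243 to 0.0569), in the others, and at 38.9 CPM in Ventral double-positive cells (34.6 to 43.6), against 2.85 counts, or 0.0283 CPM (0.00551 to 0.0846), in the others. Ventral 21 gave 52% of all counts of its class, and without it Il1b in the Ventral double-positive cells was 220 CPM and Tnf 30.5 CPM.

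Within the marker-high cells the highest Il1b and Tnf levels were found beside both high and low C1qb levels. Over the 17 cells with at least 50 counts of each marker, Pearson's r of log2(CPM + 1) was -0.09 for Il1b with C1qb and 0.06 with Csf1r, and -0.05 and -0.29 for Tnf. The highest C1qb level, 3800 CPM in Dorsal 36, stood beside 0 counts of Il1b and of Tnf, and Ventral 21, highest in Il1b, had the lowest C1qb level of the 10 Ventral cells, 1900 CPM, while Ventral 4, next in Il1b, had their highest, 3491 CPM. Over the 8 Ventral double-positive cells r was 0.74 for Il1b with Tnf and 0.88 for Il1b with Nfkbiz, an NF-kB regulator that is itself induced by IL-1 and Toll-like receptor signals. Over the 10 Dorsal ones the values were -0.25 and 0.15, and over the 17 marker-high cells 0.41 and 0.55. These values describe a handful of cells from 1 pool each, of unequal depth.

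**Figure D2:**
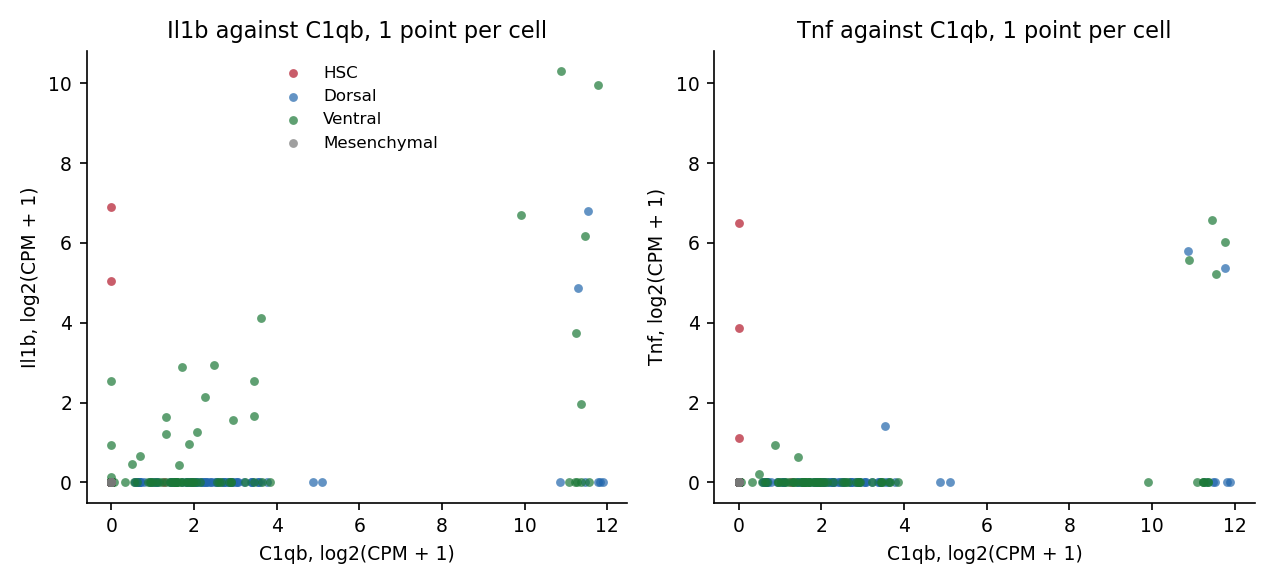
Il1b (left) and Tnf (right) against C1qb in each cell, both axes log2(CPM + 1), 1 point per cell, coloured by group. The Dorsal and Ventral cells fall into a group below 6 and a group above 9 on the C1qb axis, and Dorsal and Ventral cells with Tnf above 3 lie in the second, and the HSC cells with Il1b or Tnf lie at 0 on the C1qb axis.

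The HSC cells with at least 5 counts of Il1b or Tnf lacked C1qb, as did all but 1 of the 65 HSC cells. C1qa, Mrc1, Adgre1 and Csf1r also had medians of 0 over the whole sort, so low values of these genes do not set these cells apart. HSC 48 (118 CPM Il1b and 13.6 CPM Tnf), HSC 18 (32.02 CPM Il1b) and HSC 9 (89.9 CPM Tnf) had 0 counts of C1qb, C1qa, Mrc1 and Adgre1 and at most 3.17 counts of Csf1r. Other genes of the macrophage list were present: Tyrobp, a myeloid signalling adaptor, stood at 234, 141 and 97.0 CPM in HSC 48, HSC 18 and HSC 9, against a median of 26.5 CPM over the 65 cells, and Cd68, a lysosomal protein, at 107, 64.1 and 0 CPM, against a median of 0. Stem and progenitor cell genes were present too: Cd34 stood at 804, 1047 and 1105 CPM and Procr, which encodes EPCR, at 274, 37.9 and 28.8 CPM in HSC 48, HSC 18 and HSC 9, inside the range of the whole sort, whose medians were 685 and 125 CPM. Mpo, the myeloperoxidase of granulocyte precursors, was 36.4, 516.9 and 131 CPM, against a median of 65.03 CPM and a highest value of 6164 CPM over the 65 cells. Spi1, encoding the myeloid factor PU.1, stood at 453, 752 and 150 CPM in HSC 48, HSC 18 and HSC 9. Its median was 220 CPM, and HSC 18 was the highest of all HSC cells. Kit, also on the stem and progenitor list, stood at 187, 387 and 126 CPM, against a median of 357 CPM. After thinning, 2 of 64 HSC cells were Il1b-positive (3.12%, limits 0.381 to 10.8%) and 1 of 64 Tnf-positive (1.56%, 0.0396 to 8.40%). C1qb and Csf1r were both positive in 0 of these 3 cells and in 0 of all 64.

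**Figure D3:**
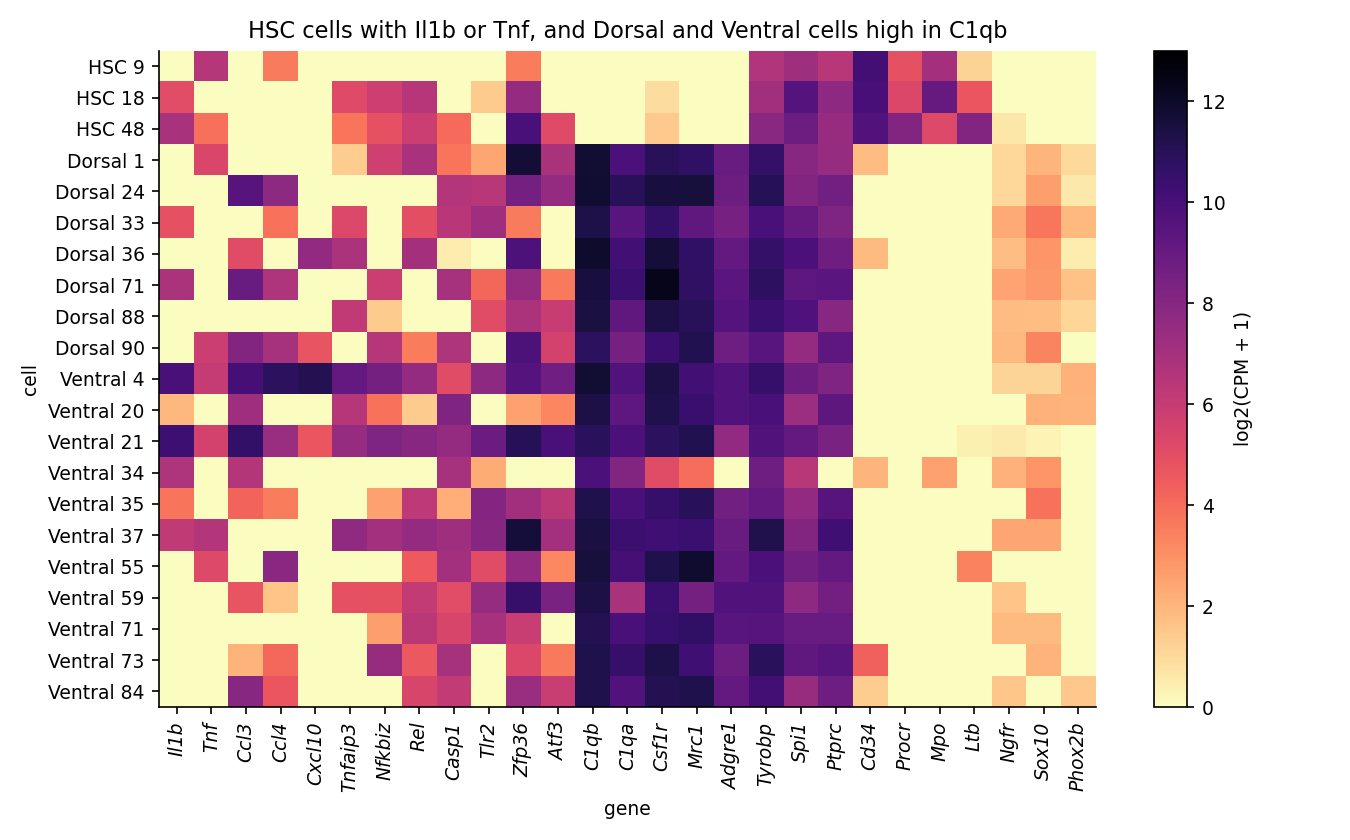
Levels of 27 genes as log2(CPM + 1), from light (0) to dark, in the 3 HSC cells with at least 5 counts of Il1b or Tnf, the 7 Dorsal and 10 Ventral cells with at least 50 counts of C1qb and of Csf1r, and Ventral 34; rows are cells, columns genes. The HSC cells are dark at Cd34 and light at C1qb, the Dorsal and Ventral cells the reverse, and Il1b and Tnf vary within both.

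Low counts of Il1b outside the marker-high cells were unevenly spread over the index pairs. Each Ventral library carries 1 of 12 i7 and 1 of 8 i5 indices, and Ventral 21 has N703 and S517. Among the Ventral cells under 50 counts of a marker, Il1b was above 0 in 10 of 15 that share either index with Ventral 21 (66.7%, limits 38.4 to 88.2%), against 8 of 64 that share neither (12.5%, 5.55 to 23.2%). The 15 held 22.05 counts together, 0.444% of those in Ventral 21, and at most 5.19 in a cell. With Ventral 4 taken in, the numbers were 13 of 30 sharing cells and 5 of 49 others. In Dorsal 0 of 16 cells sharing an index with Dorsal 71 had Il1b, and in HSC 0 of 11 sharing with HSC 48. Dorsal 71 and HSC 48 held only 139 and 213 counts of Il1b, against 4966 in Ventral 21. The 15 sharing Ventral cells averaged 0.0296% of Ventral 21 each, so the counts of 0 cannot be set against them. C1qb in Ventral had counts in 15 of 15 sharing cells and 41 of 64 others. The part of index cross-talk in these low counts was not tested. Ventral 34, which shares S508 and N705 with other marker-high cells but no index with Ventral 21, had 23.2 counts of Il1b beside 214 of C1qb and 7.55 of Csf1r, and its total of 223660 kept it out of the thinned shares.

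**Figure D4:**
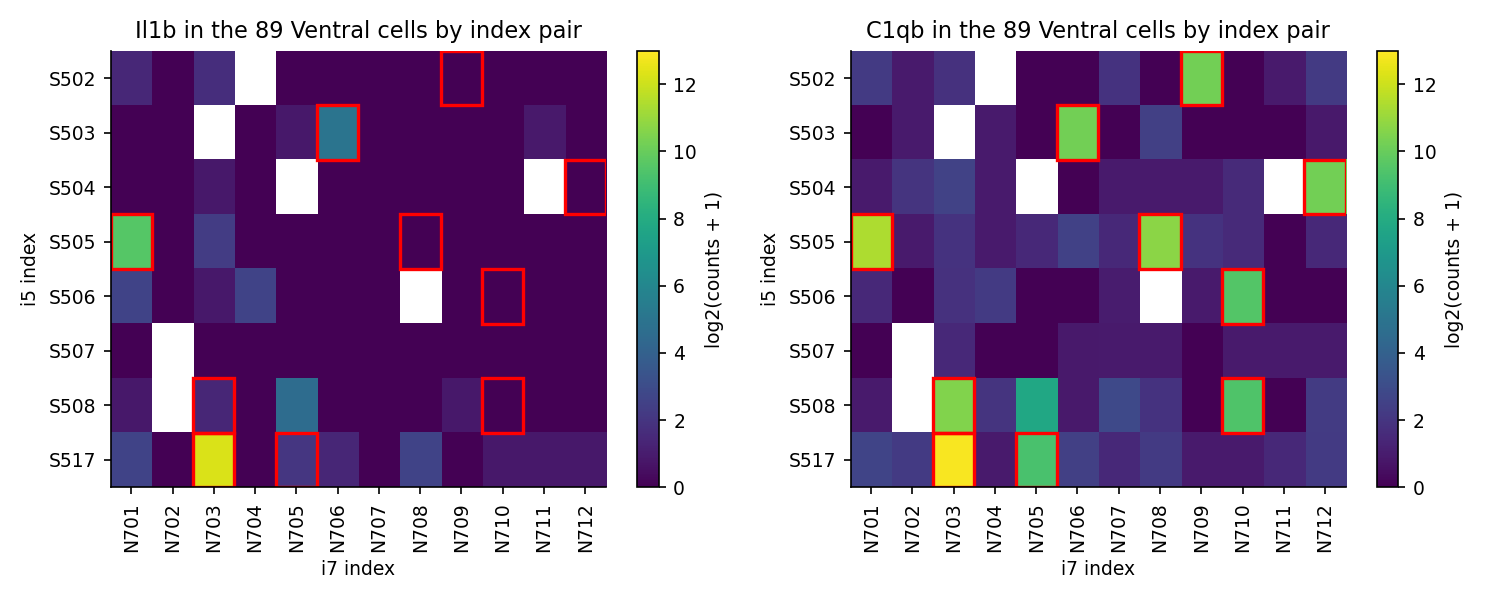
Il1b (left) and C1qb (right) in the 89 Ventral cells as log2(counts + 1), laid out by i7 index (columns) and i5 index (rows); red frames mark the 10 cells with at least 50 counts of C1qb and of Csf1r, and white marks index pairs with no cell. Il1b is high at N703 with S517 and at N701 with S505, and low counts run along the column and row of the first.

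The receptors other than Tnfrsf1b had another distribution than the ligands. Il1r1, the signalling receptor for interleukin-1, stood at 9.59 CPM in HSC, 0.171 CPM in Dorsal, 0.807 CPM in Ventral and 2.27 CPM in Mesenchymal, but HSC 23 alone held 85.5% of the HSC counts. Its partner Il1rap was lowest in HSC, at 7.03 CPM, against 23.2, 22.1 and 33.5 CPM in Dorsal, Ventral and Mesenchymal. Tnfrsf1a, the widely expressed receptor for tumour necrosis factor, was found in all 4 groups, at 68.97, 29.3, 40.4 and 34.2 CPM in HSC, Dorsal, Ventral and Mesenchymal, and was positive in 51 of 64, 49 of 92, 54 of 80 and 39 of 69 cells. Tnfrsf1b, the receptor typical of blood and immune cells, stood at 5.71, 10.98, 7.82 and 0.304 CPM. In the Ngfr+ pools it was a gene of the double-positive cells, positive in 7 of 10 Dorsal and 8 of 8 Ventral ones, against 1 of 82 and 0 of 72 others. Adam17, the protease that releases tumour necrosis factor, was at 48.01 CPM or more in each group.

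The 50 genes of 3 lists (the IL-1 system, the TNF system, and NF-kB subunits, inhibitors and kinases) include Il1b and Tnf, and 44 of them are in the table. Il1a, Il1rn, Il1r2, Nlrp3, Lta and Nfkbia were not analysed here. For HSC over Ventral, 15 of 44 were higher by 2-fold or more and 8 were lower, against 14.1% and 24.5% of all genes. The median log2 fold was 0.41, against -0.21 over all genes. For HSC over Dorsal the counts were 11 and 5 of 43, against 11.3% and 25.3% of all genes. For HSC over Mesenchymal they were 17 and 4 of 44, against 16.6% and 22.6%. Irak3, an inhibitor of IL-1 and Toll-like receptor signalling, stood at 26.6 CPM in HSC, against 0.542 CPM in Dorsal, 0.370 CPM in Ventral and 0 counts in Mesenchymal. Ltb, a TNF family ligand of lymphoid cells, stood at 27.3 CPM in HSC, against 0 counts in Dorsal, 0.0579 CPM in Ventral and 0 counts in Mesenchymal, and was highest in HSC 48, the HSC cell with the most Il1b, at 272 CPM. Dorsal over Ventral gave 5 higher and 9 lower of 42, against 10.1% and 8.3% of all genes. Ventral over Mesenchymal gave 9 higher and 4 lower of 42, against 17.1% and 12.9%.

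In the Ngfr+ pools most members of these lists were higher in the double-positive cells. For Dorsal double-positive cells over the others, 22 of 37 measured members were higher by 2-fold or more and 1 was lower, with a median log2 fold of 1.97, against -0.55 over all genes, of which 12.5% were higher and 36.1% lower. For Ventral double-positive cells over the others, 27 of 40 were higher and 5 lower, with a median of 2.46, against -0.78 over all genes, of which 17.6% were higher and 45.5% lower. Without Ventral 21 the Ventral counts were 27 higher and 3 lower of 39. At a minimum of 20 counts, with all cells, 23 were higher and 1 lower of 42 in Dorsal, and 28 and 5 of 43 in Ventral. Macrophage markers moved with these genes, 16 of 17 being at least 2-fold higher in both pools, and their part in the result was not tested.

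Casp1, which cleaves the Il1b precursor, was 45.9 CPM in Dorsal double-positive cells, against 1.72 CPM in the others, and 149 CPM in Ventral double-positive cells, against 0.413 CPM in the others. It was positive in 5 of 10 and 8 of 8 of them. Pycard, the inflammasome adaptor, was 299 CPM against 10.1 CPM in Dorsal and 367 CPM against 4.09 CPM in Ventral, and it was also high in HSC, at 141 CPM. Gsdmd is the pore-forming substrate of inflammatory caspases. On the (CPM + 1) scale its log2 fold in Dorsal, 5.44, was the largest of the IL-1 system list, and it was 2.79 in Ventral. Il1b stood at 4.04 in Dorsal on that scale, which lowers the fold of a gene at few CPM. Il1rap went the other way in Ventral, at 0.194 CPM in double-positive cells, against 23.4 CPM in the others, and was 14.1 CPM against 24.2 CPM in Dorsal.

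Targets and brakes of NF-kB were uneven from cell to cell. Tnfaip3, a feedback inhibitor of NF-kB, was at log2 folds of 4.23 in Dorsal and 5.21 in Ventral double-positive cells, and Rel, an NF-kB subunit of blood cells, at 3.88 and 5.79. Tnfaip3 stood at 557 CPM in Ventral 4, 207 CPM in Ventral 37 and 181.7 CPM in Ventral 21, the cells with both cytokines, and at 0 in 5 of the 10 Ventral marker-high cells. Nfkbiz stood at 374, 137 and 307 CPM in the same 3 cells, against a median of 20.5 CPM over the 10, and at 171 CPM in Ventral 73, which had 0 counts of Il1b and of Tnf. In Dorsal, Tnfaip3 was highest in Dorsal 36, at 113 CPM, and Dorsal 88, at 69.3 CPM, which had 0 counts of Il1b and of Tnf. Of the Dorsal cells with Il1b or Tnf, Dorsal 33 was at 37.6 CPM and Dorsal 1 at 1.58 CPM. Dorsal 71 and Dorsal 90 were at 0. Among other mediators, the chemokine gene Ccl3 was 206 CPM in Dorsal double-positive cells, against 0.115 CPM in the others, and 961 CPM in Ventral double-positive cells, against 0.256 CPM in the others. Ccl3 did not always accompany the cytokines: it was 0 in Ventral 37 and Dorsal 33, which have Il1b, and 724 CPM in Dorsal 24, which has neither.

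Zfp36, the RNA-binding protein that hastens decay of the Tnf message, was at log2 folds of 4.94 in Dorsal and 6.75 in Ventral double-positive cells, and ranged from 10.9 to 3345 CPM over the 7 Dorsal and from 4.94 to 3091 CPM over the 10 Ventral marker-high cells. Of 18 genes of mRNA decay and the immediate early response, the Dorsal double-positive cells had 13 higher by 2-fold or more and 0 lower, and the Ventral ones 14 and 1. Of the microbial sensors, 8 of 9 and 8 of 8 measured were higher. Over all genes 12.5% were higher and 36.1% lower in Dorsal, and 17.6% and 45.5% in Ventral. Some sensors reached the count minimum almost wholly through the double-positive cells, such as Tlr7 in Dorsal (662 counts, against 3.54 in the others). At a minimum of 20 counts, 9 of 10 sensors were higher in each pool. Nod1 was not: its log2 fold was 0.55 in Dorsal. In Ventral it stood at 0.0570 CPM in double-positive cells, against 0.598 CPM in the others. Macrophage markers were higher too, 16 of 17 in each pool, and their part in these counts was not tested. Tlr2, the receptor for bacterial lipopeptides, was 465 CPM in Ventral 21, 256 CPM in Ventral 37 and 215 CPM in Ventral 4, against a median of 149 CPM over the 10 Ventral cells, and 260 CPM in Ventral 35, which had 3.09 counts of Il1b and 0 of Tnf.

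**Figure D5:**
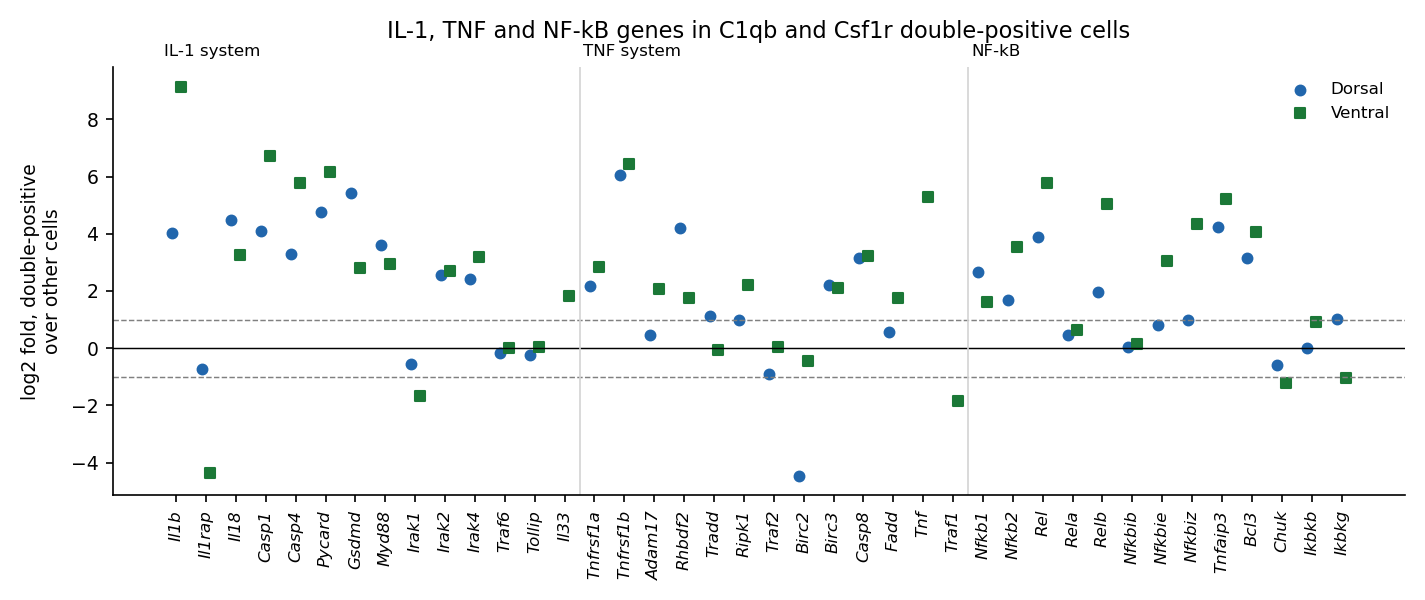
Log2 fold of (CPM + 1) in C1qb and Csf1r double-positive cells over the other cells of the same pool for genes of the IL-1, TNF and NF-kB lists with at least 100 counts; circles are Dorsal, squares Ventral, and dashed lines mark 2-fold. Most points lie above the upper dashed line, while Il1rap in Ventral and Birc2 in Dorsal lie below -4.

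Genes whose levels were most like those of Il1b and Tnf were sought among genes with at least 5 counts in at least 5 cells. Over the 93 Dorsal and 89 Ventral cells together, Pearson's r of log2(CPM + 1) with Il1b was 0.79 for Cytip, 0.63 for Ccrl2, 0.62 for Fcna, 0.61 for Ccl3, 0.59 for Pparg, 0.58 for Dusp2, 0.56 for Ccl4 and 0.56 for Gvin1. With Tnf it was 0.80 for Rgs1, 0.78 for Prkch, 0.75 for Ccrl2, 0.65 for Plek, 0.63 for Srgn, 0.62 for Trim30d, 0.61 for Ncf4 and 0.61 for Casp4. Ccrl2, an atypical receptor that binds chemerin, stood on both lists. Over the 65 HSC cells the values were lower, 0.61 for Tatdn2 and 0.57 for Fos with Il1b and 0.51 for Dmc1 and 0.49 for Fos with Tnf. All of these rest on the few cells that hold Il1b or Tnf, and cells of 1 pool share its preparation.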

How the data were processed

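RNA of single cells was sequenced by SmartSeq2, each cell being 1 sample. The authors deposited estimated counts per gene, made with kallisto 0.43.1 on GRCm38 per the submitters' processing notes, and a table of log2 values; compared value by value, the deposited log2 table is log2(x + 1), where x is the estimated count scaled by 1 factor per cell, and it served as an alternative only. The summing of transcripts to genes, the annotation and the filters are not given in the sources used here. Estimated counts split reads that fit several transcripts. Of 14109 entries, 661 without a gene symbol, with 2.96% of counts, did not enter the totals.

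For each group, counts were summed over cells and divided by the summed totals to give CPM, with exact Poisson 95% limits; shares have exact Clopper-Pearson limits. These cover counting error only, and PCR copies are not independent molecules. Folds use log2 of (CPM + 1) and at least 100 counts. For a bound, a side at 0 is set at a floor of 3 counts over the group, and the ratio of CPM is taken without the added 1. For shares, counts were rounded and cells thinned to 310000 counts, a depth near the 10th percentile of the totals, which left out 1 cell of HSC, 1 of Dorsal, 9 of Ventral and 19 of Mesenchymal. No doublet caller was run; each library is labelled as 1 cell. The highest correlation between cells of a group was 0.743, and no 2 cells were merged as copies.

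The genes, markers and 14 lists were chosen with earlier results of these data known. Named genes are the 2 to 4 measured members of each list that had the largest folds, and for likeness the 8 genes with the highest r; Il1rap, Adam17 and the genes given for single cells were chosen after their values were seen. The class with at least 50 deposited counts of each marker, and the comparison of Dorsal double-positive cells with the others, were added after seeing the data; HSC has no double-positive cell to compare. Scripts were tested on simulated data and run with Python 3.11.15, numpy 2.4.6 and scipy 1.17.1.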

Additional observations from a re-analysis of the deposited data

How the results depend on the processing

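No paired analysis was possible because the labels carry no replicate numbers and each group is 1 sample. Of the 269 values recomputed under alternatives, 195 stayed within the limits of the value reported (counts of genes within 1.5 times) and 74 did not. No fold of 2 or more changed sign. The Tnf fold of HSC over Dorsal, under 2-fold, did change sign without the highest cells, and so did 2 weak correlations with Csf1r by Spearman's rho: -0.10 for Tnf in Dorsal double-positive cells and -0.04 for Il1b in the 17 marker-high cells.

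With cells weighted equally, Il1b was 2.31 CPM in HSC and 28.2 in Ventral, and Tnf 1.04 in Dorsal; the Il1b log2 folds were 0.40 (HSC over Dorsal), -3.14 (HSC over Ventral) and -3.54 (Dorsal over Ventral), and the bounds against Mesenchymal 52.8 (HSC) and 644 (Ventral); Il1b was 292 CPM in Ventral double-positive cells and 0.646 in the others, and Tnf 9.48 in Dorsal and 30.2 in Ventral double-positive cells. Without the deepest cell of each group, Il1b was 64.7 CPM and Tnf 3.30 CPM in Ventral, the Il1b folds were -3.84 (HSC over Ventral) and -4.67 (Dorsal over Ventral), and the Ventral bounds 1479 for Il1b and 75.4 for Tnf.

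Without the cell with the highest count, Il1b was 0.719 CPM in HSC, 0.241 in Dorsal and 8.10 in Ventral, and Tnf 0.313, 0.348 and 1.07. The Il1b folds were then 0.47 (HSC over Dorsal), -2.40 (HSC over Ventral) and -2.88 (Dorsal over Ventral), with bounds of 16.4 (HSC) and 185 (Ventral). The Tnf folds were -0.039 (HSC over Dorsal) and -0.62 (Dorsal over Ventral), with bounds of 7.14 and 24.4. In double-positive cells Il1b was 2.74 CPM in Dorsal and 220 in Ventral, and Tnf 3.68 and 30.5; Tnf in the other Dorsal cells was 0.

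On the authors' size-factor scale Il1b was 2.01 in HSC and 26.5 in Ventral, and Tnf 1.94 in HSC and 1.001 in Dorsal; the folds were 0.30, -3.19 and -3.49 for Il1b (HSC over Dorsal, HSC over Ventral, Dorsal over Ventral), and -0.28 and -0.84 for Tnf (HSC over Ventral, Dorsal over Ventral). A pseudocount of 0.1 gave 1.06, -3.97 and -5.03 for Il1b and 0.83, -0.96 and -1.79 for Tnf in the order HSC over Dorsal, HSC over Ventral, Dorsal over Ventral. With totals without Dock10 and Cep97, Il1b was 3.82 CPM in HSC and 55.5 in Ventral, with bounds of 87.4 and 1269; with entries without a symbol kept, it was 51.3 in Ventral, with a bound of 1173. Neither the authors' scale nor the pseudocount gives a bound against Mesenchymal, which is at 0.

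At 1 thinned count 17.5% of Ventral cells were Il1b-positive, and, with the markers also called at 1 count, 13.8% of 29 Ventral double-positive cells were Tnf-positive; at 20 counts 100% of Ventral Tnf-positive cells (2 of 2) were Il1b-positive. Choosing cells by Csf1r alone gave Il1b 8.92 CPM in Dorsal and 407 in Ventral, and Tnf 4.10 and 20.8. The class with 50 deposited counts of each marker, chosen after seeing the data, gave Il1b 18.9 CPM in Dorsal and 712.2 in Ventral, with 0.592 in the other Ventral cells. By Spearman's rho, 3 (Il1b) and 2 (Tnf) of the 8 like genes in HSC and 4 and 3 in Dorsal and Ventral were shared. Without Ventral 21, 3 list members were lower in Ventral double-positive cells. For these values the cause was not tested.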

Other observations

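Fos was above its median in the 3 HSC cells with at least 5 counts of Il1b or Tnf, while Nr4a1 and Zfp36 were far above theirs in HSC 18 and HSC 48 but not in HSC 9; these genes were chosen after their values were seen. Fos, a subunit of AP-1, stood at 101 CPM in HSC 9, 329 CPM in HSC 18 and 95.2 CPM in HSC 48, against a median of 0 over the 65 HSC cells, and HSC 18 was the highest of all. Nr4a1, an orphan nuclear receptor gene, stood at 20.2, 1509 and 1609 CPM in the same cells, against a median of 6.58 CPM. Zfp36 stood at 10.6, 189 and 974 CPM, against a median of 6.36 CPM. These are values of 3 cells from 1 pool.

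Low counts of C1qb were common in the Ngfr+ pools. C1qb was above 0 in 63 of 86 Dorsal and 56 of 79 Ventral cells under 50 counts of a marker, against 1 of 65 HSC cells and 0 of 88 Mesenchymal cells. The part of free RNA or index cross-talk in these counts was not tested.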
